A study of Homo sapiens with 2 samples.

Results

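Peaks assigned to the promoter of a protein-coding gene, but lying 1 to 3 kb from the listed transcript start and not at it, were described in crotonate-treated T98G cells. A peak belonged here when its deposited genomic class was the promoter band of 1 to 2 kb or of 2 to 3 kb and its gene was of the protein-coding type. This rule took 620 of the 10041 peaks of the list, or 6.17% (exact 95% interval 5.71 to 6.66%), and split them by the sign of the deposited distance into 329 downstream and 291 upstream of the start. The 620 peaks were assigned to 601 genes. Of these, 595 matched a RefSeq protein-coding gene by symbol or synonym, which is 2.97% of the 20052 genes of that annotation, and this share is the background for every gene family below.
The T98G line was established from a human glioblastoma. The series holds 1 chromatin immunoprecipitation (ChIP) library, made with a pan-Kcr antibody, which recognises crotonylated lysines whatever the protein, and 1 input library of chromatin that was not immunoprecipitated. Both came from cells given crotonate for 48 h, at 10 µM by the deposited design text, and untreated cells were not analysed here. With 1 library of each kind there is no spread between replicates, and nothing below compares conditions. Intervals cover counting error only, and peaks of 1 library are not replicates of a treatment.
Lysine crotonylation is an acyl mark that enzymes such as p300 write from crotonyl-CoA and that deacetylases and sirtuins remove. On histones it is known from active promoters and enhancers, where reader proteins with YEATS domains bind it. The stretch between the start itself and the distal enhancers holds the flanks of the nucleosome-depleted region upstream and the beginning of the transcribed gene, often its first intron, downstream.

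The starts behind these assignments were those of single transcripts, which need not be the gene's main start. Only 307 of the 620 peaks (49.5%) were assigned to a transcript of the protein-coding type. Processed transcripts took 143 peaks (23.1%), transcripts with a retained intron 127 (20.5%) and transcripts marked for nonsense-mediated decay 43 (6.94%). Among the 670 protein-coding promoter peaks within 1 kb of a start the share at protein-coding transcripts was 49.3%, a difference of 0.26 percentage points (95% interval by the Newcombe method -5.18 to 5.71). Among the protein-coding-assigned peaks outside promoters it was 54.5% of 3316, and the difference was -5.01 percentage points (-9.28 to -0.73). A RefSeq start of the same gene, on GRCh38.p14, was at hand for 479 of the 620 peaks. The listed start coincided with it to the base for 62 of them, lay within 100 bp for 131 and within 1 kb for 183 (38.2%, 33.8 to 42.7%). For the peaks within 1 kb of a start the last share was 37.9% (difference 0.32 percentage points, -5.68 to 6.33), and over all protein-coding-assigned peaks 41.2%. For peaks at protein-coding transcripts 144 of 237 listed starts lay within 1 kb of the RefSeq start (60.8%), and for peaks at other transcripts 39 of 242 (16.1%).
Most of the peaks lay inside their gene as RefSeq draws it. Of 613 peaks with a matched gene, 505 (82.4%) overlapped its span, 19 (3.10%) overlapped only another protein-coding gene and 89 (14.5%) overlapped no protein-coding gene. Downstream peaks overlapped their own gene in 309 of 326 cases (94.8%), and upstream peaks in 196 of 287 (68.3%). Upstream in this class therefore means upstream of a listed transcript, and for 196 peaks still inside the RefSeq gene.

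The promoter sequences below show the starts next to 4 of the 26 peaks of 4 or more fragments, and do not stand for the others. Of the 26, 14 were at protein-coding transcripts, and the strongest, at PTPRF, was at a processed transcript. The sequences belong to 4 genes whose peak had 4 or more fragments at its summit, whose listed transcript was of the protein-coding type and whose listed start was the RefSeq start to the base. Each is the stretch of 250 bases before that start from RefSeq (GRCh38.p14), written 5′ to 3′ on the strand of the gene, with CG dinucleotides in capitals. The peaks lie 1 to 3 kb away and are not in these windows.
DOHH, chr19:3500675-3500924, - strand: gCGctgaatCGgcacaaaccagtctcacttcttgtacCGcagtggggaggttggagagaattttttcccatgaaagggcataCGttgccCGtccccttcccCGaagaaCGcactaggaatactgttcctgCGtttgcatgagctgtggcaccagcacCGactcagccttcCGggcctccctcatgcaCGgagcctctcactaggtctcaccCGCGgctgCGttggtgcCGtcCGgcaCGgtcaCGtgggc
METTL27, chr7:73842517-73842766, - strand: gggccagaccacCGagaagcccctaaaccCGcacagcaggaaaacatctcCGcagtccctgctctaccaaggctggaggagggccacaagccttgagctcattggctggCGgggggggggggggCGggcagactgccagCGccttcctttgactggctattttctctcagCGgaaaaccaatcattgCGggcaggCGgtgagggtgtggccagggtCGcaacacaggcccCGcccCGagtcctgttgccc
TMEM89, chr3:48621770-48622019, - strand: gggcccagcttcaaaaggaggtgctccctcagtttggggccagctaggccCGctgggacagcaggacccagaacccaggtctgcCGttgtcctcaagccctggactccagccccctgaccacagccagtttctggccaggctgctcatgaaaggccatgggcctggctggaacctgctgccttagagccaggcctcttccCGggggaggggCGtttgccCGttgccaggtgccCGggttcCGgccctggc
OR2C3, chr1:247536441-247536690, - strand: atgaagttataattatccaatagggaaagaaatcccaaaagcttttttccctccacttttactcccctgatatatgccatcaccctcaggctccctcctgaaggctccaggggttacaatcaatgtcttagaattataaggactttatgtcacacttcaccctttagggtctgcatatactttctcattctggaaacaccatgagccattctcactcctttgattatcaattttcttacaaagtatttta
The stretches fall along a scale of CpG density. The stretch before DOHH, the gene of an iron enzyme that completes the hypusine residue of the translation factor eIF5A, held 18 CG dinucleotides. Its CpG ratio, the number of CG dinucleotides over the number that the C and G counts of the window would give, was 0.81. The stretch before METTL27, a gene of the methyltransferase-like family, held 12 at a ratio of 0.46, and that before TMEM89, which encodes a transmembrane protein, held 7 at a ratio of 0.25. The stretch before OR2C3, an olfactory receptor gene, held 0 and had a G+C content of 38.4%, against 60.0% for DOHH, 64.8% for METTL27 and 66.8% for TMEM89. Peaks of this class were thus found next to CpG-rich and next to CpG-free starts.
Promoter windows of 300 bases from RefSeq (250 before and 50 after the start) were then read for all genes that had one. A CpG ratio under 0.1 was uncommon, at 4.06% of genes with a 1 to 3 kb peak and 5.46% of all promoters. Of 468 genes with a 1 to 3 kb peak, 324 (69.2%, 64.8 to 73.4%) had a CpG ratio of 0.6 or more, against 65.7% of the 15374 other promoters, a difference of 3.55 percentage points (-0.84 to 7.63). The median ratio was 0.79, against 0.76 over all 15842 protein-coding promoters. These windows stand at the RefSeq start, and for 296 of 479 peaks of the class the listed start lay more than 1 kb from it. The share with a ratio of 0.6 or more was lower, 60.0% (52.4 to 67.2%), among the 180 genes whose listed start lay within 1 kb of the RefSeq start, a setting added after the values were seen. Motif letters were searched on both strands of the 300 bases, and no motif shares its letters with another in full. The letters GGGCGG, a binding motif of Sp1, were in 64.1% of the windows of genes with a 1 to 3 kb peak, against 58.5% of all windows (exact 95% interval of the first 59.6 to 68.5%). Where the listed start lay within 1 kb of the RefSeq start they were in 61.7% (54.1 to 68.8%), an interval that held 58.5%. Genes with a peak within 1 kb had GGGCGG in 63.1% and a CpG ratio of 0.6 or more in 68.7%. CCAAT, the letters bound by NF-Y, was in 34.0%, against 36.4%, and TATAAA in 8.12%, against 9.63%. TGACGTCA, the cAMP response element, was in 2.35%, against 2.59%, and TGANTCA, the AP-1 motif, in 3.85% (2.30 to 6.01%), against 5.75%, and in 7.01% (4.93 to 9.62%) for genes with a peak within 1 kb. A match describes the letters of the window only.

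**Figure D1:**
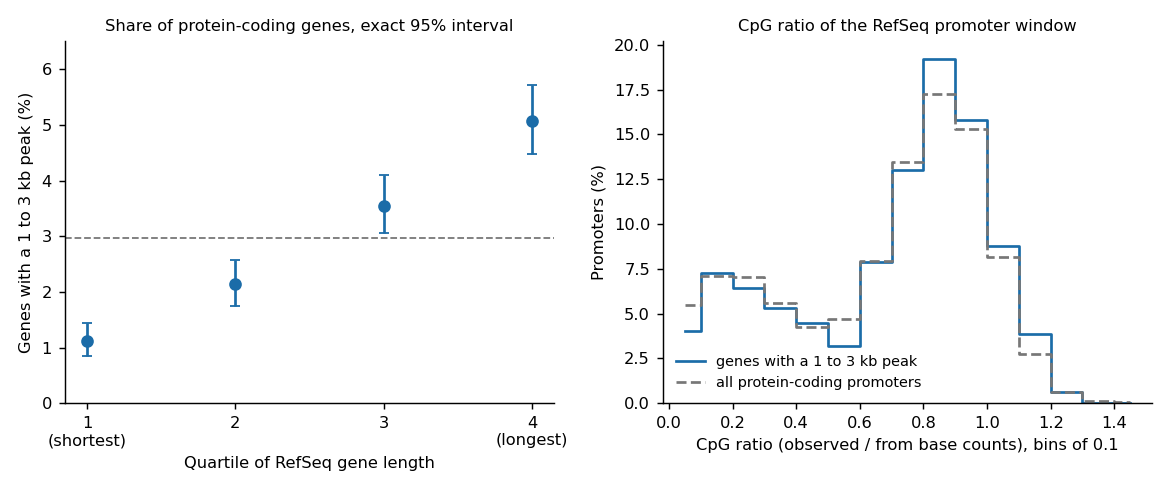
Left, the share of RefSeq protein-coding genes with a 1 to 3 kb peak (%, point) with its exact 95% interval (bar) by quartile of gene length, and the share over all genes (dashed line, 2.97%). Right, the percentage of promoter windows by CpG ratio in bins of 0.1, for genes with a 1 to 3 kb peak (solid) and all protein-coding promoters (dashed). The share climbs from 1.12% in the shortest to 5.07% in the longest quartile, while the CpG profiles run close together.

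Longer genes had such a peak more often. In the shortest quartile of RefSeq gene length, up to 8.53 kb, 56 of 5013 genes had one (1.12%, 0.84 to 1.45%). The share was 2.13% in the second quartile, 3.55% in the third and 5.07% (4.48 to 5.71%) in the longest, above 65.0 kb. The median length was 51.5 kb for genes with a 1 to 3 kb peak, 40.3 kb for genes with a peak within 1 kb and 24.1 kb for all protein-coding genes. The number of annotated starts per gene was not counted, and its part in this trend was not tested.

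Around the listed start, the class sat on the flanks of a central maximum. A total of 127 protein-coding-assigned peaks overlapped the start, 312 lay within 1 kb downstream of it and 231 within 1 kb upstream. In the bands from 1 to 2 kb there were 162 peaks downstream and 175 upstream, and in the bands from 2 to 3 kb 167 downstream and 116 upstream. The next bands, from 3 to 4 kb and outside the class, held 141 and 121 peaks. Each peak was assigned to its nearest start, and the part of this assignment in these numbers was not tested. Distances were deposited from the nearer edge of the peak. They ran from 1006 to 3000 bp with a median of 1914.5 bp, while the summit lay at a median of 2090 bp. The 1 to 2 kb band held 337 of the 620 peaks (54.4%, 50.3 to 58.3%).

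**Figure D2:**
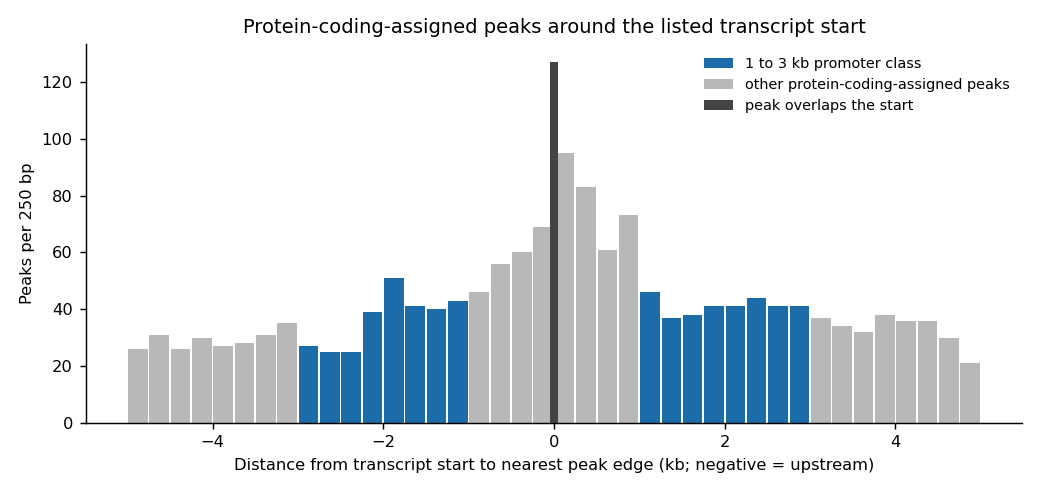
Number of protein-coding-assigned peaks per 250 bp (vertical axis) by distance from the listed transcript start to the nearest peak edge in kb (negative is upstream). Dark blue bars are the 1 to 3 kb class, grey bars other peaks, and the black bar the 127 peaks that overlap the start; between 2 and 3 kb, the downstream bars hold 41 to 44 peaks each and the upstream bars 25 to 39.

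The balance of the sides differed between the bands. Downstream peaks were 329 of 620 (53.1%, 49.0 to 57.1%) in all. In the 2 to 3 kb band they were 167 of 283 (59.0%, 53.0 to 64.8%), and in the 1 to 2 kb band 162 of 337 (48.1%, 42.6 to 53.6%). The difference between the bands was 10.9 percentage points (3.06 to 18.6), and splitting the share by band was a step added after the values were seen. At the promoters of other gene types, 115 of 211 peaks in the 2 to 3 kb band were downstream (54.5%), so that the protein-coding share differed from it by 4.51 percentage points (-4.27 to 13.3). Of the 329 downstream peaks, 288 (87.5%) overlapped their listed transcript and 41 (12.5%) lay past its end. Those 41 listed transcripts were short, as at TMEM89, with a span of 1011 bp and a peak 1048 bp from its start, and at OR7A5, with a span of 1029 bp and a peak at 1693 bp.
The limits of the class cut through a continuous run of distances. The members nearest to a start were at SRA1, which encodes a steroid receptor RNA activator, 1006 bp downstream, and at CYRIA, a regulator of Rac1, 1010 bp upstream. Just under that limit, in the class within 1 kb, lay peaks at CACNA1G, a T-type calcium channel gene, 997 bp downstream, and FAM83H, 999 bp upstream. At the outer limit, the members at RBPJ, the DNA-binding effector of Notch, and MAEA, a subunit of a ubiquitin ligase, lay 2997 and 3000 bp upstream. A peak of the same fold enrichment at NCAN, which encodes the brain proteoglycan neurocan, lay 3002 bp upstream and was listed as intronic, as was one at SPATA7 3004 bp downstream. Fold enrichment was 2.69 at SRA1, 2.73 at CYRIA, RBPJ, MAEA, NCAN and SPATA7, 2.63 at FAM83H and 3.51 at CACNA1G.

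The peaks were low. Fold enrichment is the authors' ratio of ChIP signal over background at the summit. It ran from 2.53 to 5.09 with a median of 2.73, which was also the median within 1 kb and over all other peaks. The fragments at each summit were recovered from the deposited fold enrichment and −log10 p. These were read as (fragments + 1)/(background + 1) and as a Poisson probability. Only whole numbers of fragments were tried, and the best one gave back the deposited −log10 p to within 0.0001 at every peak. There were 448 peaks with 2 fragments, 146 with 3, 24 with 4 and 2 with 5. A count of 2 has an exact Poisson 95% interval of 0.24 to 7.22, and a count of 5 one of 1.62 to 11.7. These overlap, and a ranking of peaks by height was not resolved at this depth. The median background was 0.125 fragments. On the lowest background of the list, 0.0999, stood 207 peaks (33.4%), against 36.4% of all peaks of the list. The largest p was 0.00092 and the smallest q was 0.266. A q of 1 was given to 466 of the 620 peaks, and to 7675 of all 10041 peaks of the list. Their lengths ran from 258 to 688 bp around a median of 311 bp.
At 3 or more fragments the class differed from the other peaks by less than the counting error. Of the 620 peaks, 172 had 3 or more (27.7%, 24.3 to 31.4%), against 194 of the 670 within 1 kb (29.0%), a difference of -1.21 percentage points (-6.11 to 3.71). Against all 9421 other peaks of the list, of which 25.6% had 3 or more, it was 2.11 percentage points (-1.39 to 5.86). Downstream peaks had 3 or more in 28.3% and upstream peaks in 27.1%, a difference of 1.12 percentage points (-5.96 to 8.11). The 2 to 3 kb band had 26.9% and the 1 to 2 kb band 28.5% (-1.63 percentage points, -8.61 to 5.47). Peaks at protein-coding transcripts had 25.7% and those at other transcripts 29.7% (-3.98 percentage points, -11.0 to 3.07). These intervals all hold 0, and they leave room for differences of several percentage points.
At 4 or more fragments the class held 26 peaks (4.19%, 2.76 to 6.08%), against 198 of the 9421 other peaks (2.10%). The difference was 2.09 percentage points (0.74 to 3.99). Against the class within 1 kb, with 18 of 670 (2.69%), it was 1.51 percentage points (-0.50 to 3.63). This limit was chosen after the values were seen. Of the 26 peaks, 8 lay on chromosome 1, which held 74 of the 620 peaks of the class. With chromosome 1 left out the difference was 1.22 percentage points with an interval that reached 0 (-0.03 to 3.09). With each other chromosome left out in turn, it ran between 1.91 and 2.42 and its interval stayed above 0.

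**Figure D3:**
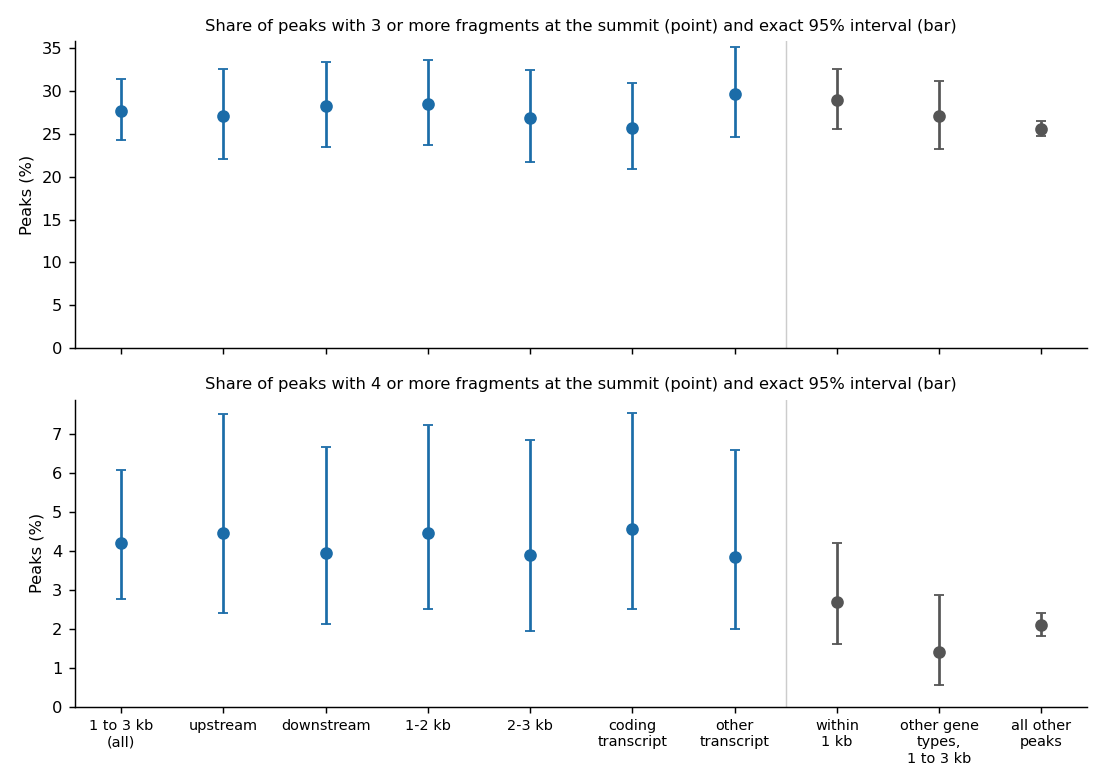
Share of peaks (%) with 3 or more (top) and 4 or more (bottom) fragments at the summit, with exact 95% intervals. Blue points are the 1 to 3 kb class and its subsets, grey points the class within 1 kb, the 1 to 3 kb peaks of other gene types and all other peaks; the upper shares lie between 25.6% and 29.7%, and the lower shares are 4.19% for the class against 2.10% for all other peaks.

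The 26 peaks of 4 or more fragments fell at 26 genes of varied function, 13 downstream and 13 upstream. The strongest was at PTPRF, a receptor tyrosine phosphatase of cell adhesion and axon guidance. With 5 fragments and a fold enrichment of 5.09, it lay on chromosome 1 from 43534900 to 43535403, at 2795 bp upstream of a processed transcript and inside the RefSeq gene. OR2C3, the olfactory receptor gene printed above, also had 5 fragments, on a higher background of 0.359, and a fold enrichment of 4.42. That peak, on chromosome 1 from 247538516 to 247538875, lay 2076 bp upstream of the start and within the span of the neighbouring gene GCSAML.
A group of 7 peaks shared a fold enrichment of 4.55, each with 4 fragments on the lowest background. GINS1, which encodes a subunit of the replicative helicase, had its peak 2970 bp downstream of a processed transcript on chromosome 20 from 25416427 to 25416757. APAF1, the scaffold of the apoptosome, had its peak 2671 bp upstream of a processed transcript on chromosome 12 from 98696374 to 98696825. CAMSAP2, a binder of microtubule minus ends, had its peak 1892 bp upstream of a protein-coding transcript. SLC43A3, a nucleobase transporter, had its peak 1282 bp downstream. KPRP, which encodes a proline-rich protein of keratinocytes, had its peak 1403 bp downstream, PRSS54, of the serine protease family, 2439 bp downstream and TMEM89 1048 bp downstream.
PRKCZ, an atypical protein kinase C, had a value of 4.37 at 2877 bp downstream, on chromosome 1 from 2171852 to 2172480. ZC3H7B, a zinc finger gene, had the same value at 2260 bp downstream. A value of 4.24 was shared by peaks with 4 fragments at DIRAS3, an imprinted Ras-like tumor suppressor (2034 bp upstream), TNS1, the focal adhesion protein tensin (1894 bp downstream), and DYNC1I1, a dynein intermediate chain (1583 bp upstream). It was shared also by JAZF1, a zinc finger gene fused in endometrial stromal sarcoma (1343 bp downstream), NSMCE2, the SUMO ligase of the SMC5/6 complex (2333 bp upstream), ARMC5, an armadillo repeat gene (1896 bp upstream) and OR7A5 (1693 bp downstream). ELF3, an epithelial ETS factor, rounded to the same value on a slightly higher background (1779 bp upstream). The peaks listed at NSMCE2 and ELF3 lay within the spans of the neighbouring genes WASHC5 and RNPEP, and that at OR7A5 also within that of OR7C1.
The remaining peaks of 4 fragments had lower fold enrichments over higher backgrounds. They were at PLEKHO1, a pleckstrin homology gene, with 4.22, METTL27 with 4.06, DOHH with 3.91, IL1R1, the signalling receptor of interleukin 1, with 3.68, FEZ1, an axonal transport adaptor, with 3.68, and PRKRA, an activator of the kinase PKR, with 3.55. CHRNA4, a subunit of neuronal nicotinic acetylcholine receptors, had 4 fragments over the highest background of the class, 0.717, and a fold enrichment of 2.91. Of the 26 genes, 3 had a further peak outside the class, namely TNS1 with 2, JAZF1 with 1 and DYNC1I1 with 4.

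Few genes carried more than 1 peak of the class. A single peak was found at 584 genes, 2 at 15 genes and 3 at 2 genes. Any other peak of the list was assigned to 167 of the 601 genes (27.8%), and a peak within 1 kb of a start to 38 (6.32%). Over all 20052 RefSeq protein-coding genes, 643 had a peak within 1 kb, and the share with any listed peak is not given here. Median gene length was 51.5 kb in the class and 24.1 kb over all genes, and its part in these overlaps was not tested. DEPDC5, a subunit of the GATOR1 complex that restrains mTORC1, had 3 peaks spread over 143 kb at 3 different transcripts, each of 2 fragments and with fold enrichments of 2.53, 2.63 and 2.66. EPHA10, an ephrin receptor without kinase activity, had 3 peaks over 38.9 kb with fold enrichments of 2.59, 2.63 and 3.64.
Among the genes with 2 peaks, the pair flanked 1 transcript start at KIF2B and AC099489.1 and lay at different transcripts at the others. At KIF2B, a kinesin of the microtubule-depolymerising family, the peaks lay 1556 bp downstream with 3 fragments (fold enrichment 3.64) and 2547 bp upstream with 2 fragments (2.73). At EZH1, a histone H3 lysine 27 methyltransferase, both peaks had 3 fragments, 1462 and 1527 bp downstream of transcripts with a retained intron, with fold enrichments of 3.43 and 2.94. CPT1A, which starts mitochondrial fatty acid oxidation and is listed here with acyl-CoA metabolism, had 2 peaks 45.1 kb apart. They had 2 fragments each and lay 2529 and 2279 bp upstream of 2 transcripts, with values of 2.73 and 2.63. CHRNA4 had its second peak 1276 bp upstream of another transcript, with 2 fragments and a value of 2.65.
The widest spread was at NRXN3, a presynaptic neurexin gene, with peaks 1115 kb apart and fold enrichments of 2.54 and 2.61. AGAP1, an Arf GTPase-activating gene, had peaks 384 kb apart with values of 2.73 and 3.44. Other genes with 2 peaks were the cholesterol exporter ABCG1, the phospholipid phosphatase-related PLPPR1, the heparan sulfatase SULF1, the lymphoid transcription factor IKZF1, ZBTB38, a methyl-CpG binding factor, SPATA13, a guanine nucleotide exchange factor, and FBXO41, an F-box gene. Their peaks had 2 fragments each, except 1 of 3 fragments at PLPPR1.

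Every chromosome but Y, which had 8 peaks in all, held members. Chromosome 19 gave the largest share of its peaks to the class, 43 of 248 (17.3%, 12.8 to 22.6%), against 5.89% on the other chromosomes, a difference of 11.4 percentage points (7.22 to 16.7), for a chromosome picked after its value was seen. Counted over its 1451 protein-coding genes, however, chromosome 19 stood at 2.83% (2.04 to 3.81%), beside 2.97% for the genome. By genes, chromosome 20 was the highest, with 31 of 537 (5.77%, 3.96 to 8.09%). Chromosome X, with 6 of 848 (0.71%, 0.26 to 1.53%), chromosome 6, with 13 of 1049 (1.24%), and chromosome 4, with 10 of 769 (1.30%), were among the lowest. On chromosome 20, 15 of 32 peaks of the class had 3 or more fragments (46.9%), against 26.7% elsewhere (20.2 percentage points, 3.74 to 37.2). The other peaks of chromosome 20 had 33.6%, against 25.2% for the other peaks elsewhere. Within chromosome 20 the class and the other peaks differed by 13.3 percentage points (-3.31 to 30.5). The median background was also higher there, 0.167 for peaks of the class against 0.120 elsewhere, and 0.171 for other peaks against 0.120. The part of copy number was not tested.

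**Figure D4:**
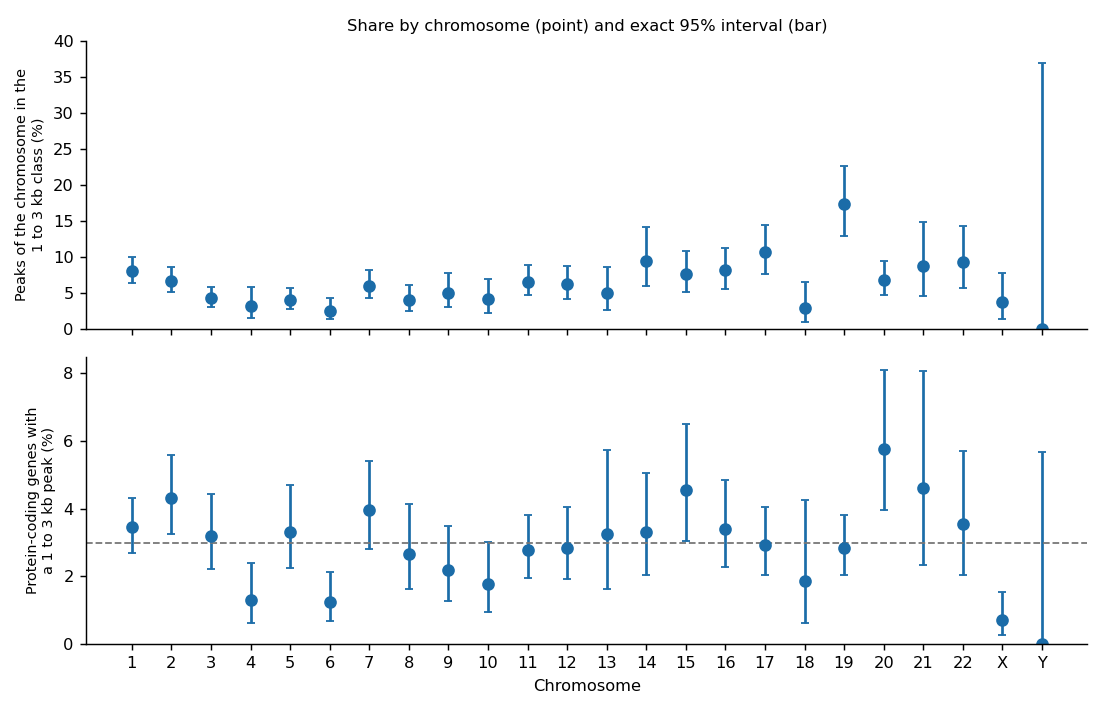
Top, the share of each chromosome's peaks that fall in the 1 to 3 kb class (%). Bottom, the share of its RefSeq protein-coding genes with such a peak (%), with the genome share of 2.97% as a dashed line; points are shares and bars exact 95% intervals. Chromosome 19 stands out in the top panel at 17.3% and sits at 2.83% in the bottom one, where chromosome 20 is highest at 5.77%.

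Genes were then grouped in 41 families and 5 lists. Together they held 5728 genes, of which 179 had a 1 to 3 kb peak (3.12%), beside 2.97% over all protein-coding genes. Shares of families have exact 95% intervals, and the share set beside each is that of all genes weighted to the family's quartiles of gene length. Fold enrichments after gene names are those of the strongest peak of the class at the gene. Of the 46 intervals, 3 left out 2.97%, and none was adjusted for their number.
Families of the cell surface and matrix had shares from 2.22 to 10.0%, with wide intervals. Among 101 integrin, laminin and collagen genes, 8 had a peak (7.92%, 3.48 to 15.0%), beside a length-weighted 4.39%. They included COL4A2, a collagen of basement membranes, with 3 fragments and a fold enrichment of 3.64, ITGB5 and ITGAV, the subunits of the αvβ5 vitronectin receptor, with 3.29 and 2.73, and COL23A1, a transmembrane collagen, with 2.63. These peaks lay downstream of their starts, at 2337, 1449, 2339 and 2882 bp. Guidance genes had 4 of 73 (5.48%, 1.51 to 13.4%), beside 3.86%, namely EPHA10, PLXNB2 with 3.40, PLXNA2 with 2.73 and SEMA4B with 2.59. Cadherins had 3 of 110 (2.73%, 0.57 to 7.76%), beside 3.95%, with CDH1, the epithelial cadherin, at 3.64, PCDHGA2 at 3.57 and CDH18 at 2.73. Receptor tyrosine phosphatases had 2 of 20 (10.0%, 1.23 to 31.7%), beside 4.84%, namely PTPRF and PTPRT, the second with 3 fragments and 3.39. Receptor tyrosine kinases had 1 of 45 (2.22%, 0.06 to 11.8%), beside 4.08%, IGF1R, with 2.54. The ephrin receptor gene EPHA10 was counted with the guidance genes and not here.
Of the pumps and channels, ABC transporters and ATPases had 8 of 111 (7.21%, 3.16 to 13.7%), beside 3.88%. The strongest were ABCC4, an exporter of cyclic nucleotides, with 3.64, the lipid flippase genes ATP8B3 and ATP11B with 3.39 and 2.94, and ABCB10, a mitochondrial transporter, with 2.73. Ion channels had 8 of 207 (3.86%, 1.68 to 7.47%), beside 3.82%, with ANO7 at 3.63, RYR2, the cardiac calcium release channel, at 3.62, the chloride channel CLCN1 at 3.54 and KCNAB2 at 2.73. Neurotransmitter receptors had 5 of 124 (4.03%, 1.32 to 9.16%), beside 3.45%, with CHRNA4, the glutamate receptors GRIA4 and GRIN2A at 2.73 each and GABBR2 at 2.72. Solute carriers had 11 of 391 (2.81%, 1.41 to 4.98%), beside 3.34%, led by SLC43A3, SLC38A9, an arginine sensor of the lysosome, with 3.64, the zinc transporter SLC39A14 with 3.63 and the sodium-calcium exchanger SLC8A2 with 3.60.
Among ligand pathways, the TGF-beta, BMP and activin genes had 6 of 77 (7.79%, 2.91 to 16.2%), beside a length-weighted 3.32%. The ligand GDF15 had 2.73 at 1320 bp upstream, the receptor ACVR1 2.73 at 2579 bp upstream, the BMP antagonist GREM1 2.70 at 1701 bp upstream and FSTL4, of the follistatin-like family, 3.59 at 1310 bp upstream. Notch and Hedgehog genes had 3 of 48 (6.25%, 1.31 to 17.2%), beside 3.38%. These were the receptor NOTCH1 with 2.60 and the DNA-binding factors RBPJ and GLI2 with 2.73 each. WNT genes had 2 of 78 (2.56%, 0.31 to 8.96%), beside 3.28%, the ligands WNT7B with 2.94 and WNT10A with 2.59.
Motor proteins, the kinesins, dyneins and myosins, had 8 of 135 (5.93%, 2.59 to 11.3%), beside 3.91%, with DYNC1I1 at 4.24, MYO7A and KIF2B at 3.64 and MYO18B at 3.42. Rab, Arf and Ras genes had 7 of 217 (3.23%, 1.31 to 6.53%), beside 3.46%.
For genes of chromatin and transcription the intervals held the background. Lysine acyl- and methyltransferases and their erasers had 7 of 125 (5.60%, 2.28 to 11.2%), beside 3.69%. The writers among them were SMYD2, a lysine methyltransferase, with 3 fragments and 3.64, EZH1, and EP300, the acyltransferase p300, with 2 fragments and 2.73 at 2256 bp upstream of a transcript with a retained intron. PHF7, a histone H2A ubiquitin ligase in the mouse testis, had 3.57. Among the 19 crotonylation genes that the paper names, 2 had a peak of the class (10.5%, 1.30 to 33.1%), beside a length-weighted 3.43%, and the interval held the background. They were EP300 and the sirtuin eraser SIRT2, with 2.54 at 1197 bp downstream. Homeobox genes had 7 of 182 (3.85%, 1.56 to 7.76%), beside 2.25%, with POU6F1 at 3.64, POU2F1 at 2.73, ONECUT3 at 2.70 and HOXB13 at 2.69. ZNF genes had 14 of 509 (2.75%, 1.51 to 4.57%), beside 2.92%, with a median fold enrichment of 3.48 over the best peak of each gene, beside a median of 2.73 over all peaks of the class. Medians were higher, from 2 or 3 genes each, for cadherins (3.57), protein kinases C, A, G and CaM kinases (3.54) and receptor tyrosine phosphatases (4.24). Such heights were not resolved at this depth. The 4 highest ZNF genes, ZNF814, ZNF274, ZNF784 and ZNF114, lay on chromosome 19 and had 3 fragments each. The SOX, FOX, TBX, GATA and KLF genes had 1 of 118 (0.85%, 0.02 to 4.63%), beside 2.38%, KLF13, with 3.39.
Several families of short genes had none. No peak of the class was found at 91 histone genes (exact 95% interval up to 3.97%) or 87 ribosomal protein genes (up to 4.15%). Nor was any found at 72 genes of chemokines and their receptors (up to 4.99%) or 43 genes of antigen presentation (up to 8.22%). The length-weighted shares of these families, in the same order, were 1.21%, 1.41%, 1.60% and 1.92%, so that an absence was not distinguishable from these at this number of genes. Olfactory receptor genes had 5 of 392 (1.28%, 0.42 to 2.95%), under 2.97% but close to the length-weighted 1.48%.
Of 36 glioma driver genes, 2 had a peak of the class (5.56%, 0.68 to 18.7%), beside a length-weighted 3.65%, and the interval held the background. TERT, the catalytic subunit of telomerase, had 2 fragments and a value of 2.73 at 1676 bp upstream of a protein-coding transcript, on chromosome 5 from 1296744 to 1297011, and the other was NOTCH1. The 36 glial and neural progenitor genes had the same share, beside a length-weighted 3.13%, from NOTCH1 and BCAN, the proteoglycan brevican, with 2.73. Acyl-CoA metabolism had 2 of 77 (2.60%, 0.32 to 9.07%), beside 3.63%, CPT1A and ACSBG2, an acyl-CoA synthetase gene, with 2.54.

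**Figure D5:**
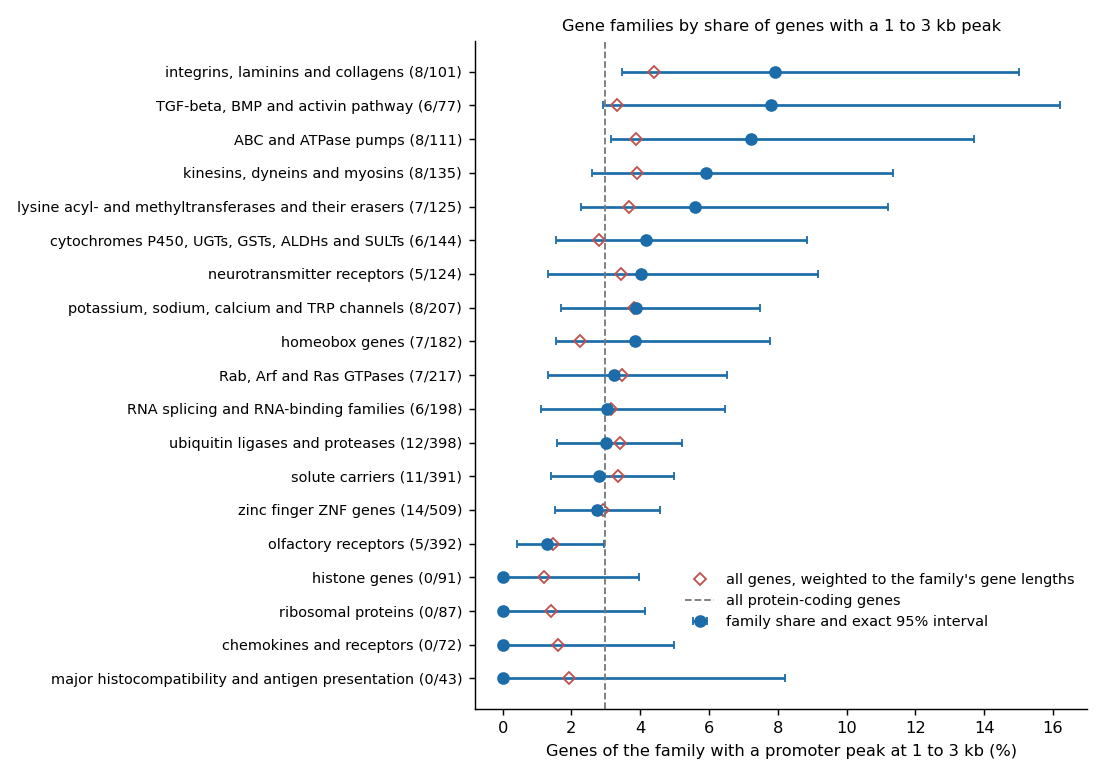
Share of each family's genes with a 1 to 3 kb peak (%, points) with its exact 95% interval (bars), for most of the families with 5 or more or no such genes; brackets give genes with a peak over genes in the family. Diamonds are the share of all genes weighted to the family's gene lengths and the dashed line all protein-coding genes (2.97%); integrins, laminins and collagens are highest at 7.92% and their interval starts at 3.48%.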

How the data were processed

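Pan-Kcr ChIP-seq of crotonate-treated T98G cells was described from 1 ChIP and 1 input library, grouped by the sample labels. The authors deposited 1 peak list with, for every peak, its fold enrichment (a ratio to the background), −log10 p and −log10 q values made by the authors, the genomic class, the nearest transcript and the distance to its start. The aligner, the peak caller and its threshold, and the build are not stated in the sources at hand. Listed starts coincided to the base with RefSeq GRCh38.p14 starts at 607 of 3624 protein-coding-assigned peaks with such a start, and the coordinates printed are those of the list. The library depth is unknown from the file.
Fragments at each summit were computed back from the fold and −log10 p that the authors deposited. The step was tested on data simulated with the same formulas, which cannot show that the deposited values were made with them. Shares have exact (Clopper-Pearson) intervals and differences of 2 shares Newcombe intervals, both at 95%. No test between conditions was possible. Genes were matched to RefSeq by symbol or synonym. The members, families, lists and rules were chosen with earlier results of these data known. Named were the 20 peaks of highest fold enrichment (ties by −log10 p, then position), all peaks of 4 or more fragments, all genes with 2 or more peaks, up to 4 genes per family, and the peaks nearest to each distance limit, the last chosen after their values were seen. A few genes and groups that these rules name are not reported here. Alternatives were a minimum fold enrichment equal to the median of the list, 3 or more fragments, leaving out chromosome Y or 20, summit distance in place of the class, merging peaks within 1 kb, all gene types, and other promoter windows for the families. Software was scipy 1.17.1, pandas 2.3.3 and numpy 2.4.6 under Python 3.11.15, with matplotlib 3.10.9 for the plots.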

Additional observations from a re-analysis of the deposited data

How the results depend on the processing

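No paired analysis was possible because the series has 1 ChIP library and 1 input library. The counts moved with the rule for a peak, by construction. With a minimum fold enrichment equal to the median, 341 peaks at 337 genes were left, 50.4% of them had 3 or more fragments, and 94 genes of the families and lists had one. With 3 or more fragments, 172 peaks at 171 genes and 51 genes of the families and lists were left. All gene types gave 1119 peaks at 1095 genes. Protein-coding transcripts alone, a setting added after seeing the data, gave 307 peaks at 303 genes. With any promoter peak within 3 kb, 367 genes of the families and lists were counted, and with any assigned peak 1106. The CpG share of 69.2% became 60.0% for listed starts within 1 kb of the RefSeq start, and the cause was not tested.
Of the counts for single families and lists under these alternatives, 175 shifted past 1.5 times their value and 101 stayed within it. Those 101 include all 46 counts without chromosome Y, which could not move because Y held no peak of the class. Among the other results, that setting could change only the comparison with all other peaks. Integrins, laminins and collagens had 3 genes at the median fold enrichment or above and 2 with 3 or more fragments, against 8, and TGF-beta, BMP and activin genes 3 and 1, against 6. The 44 values of the other results that were not named above stayed within 1.5 times the count, within the interval of the share or, for differences, kept their direction with an interval that held 0. Most summits hold 2 fragments in 1 ChIP library, and the peak sequences were not examined because no genome was used.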

Other observations

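Further families are given beside the background of 2.97%, which lay within the interval of each. Drug- and hormone-metabolising enzymes of the cytochrome P450, UGT, GST, ALDH and SULT families had a 1 to 3 kb peak at 6 of 144 genes (4.17%, exact 95% interval 1.54 to 8.85%), beside a length-weighted 2.81%. The strongest were CYP2C18 with a fold enrichment of 3.57 and ALDH1A2, a retinoic acid synthesis enzyme, with 3.39. Genes of interleukins, tumour necrosis factors and their receptors had 4 of 147 (2.72%, 0.75 to 6.82%), beside a length-weighted 2.50%, led by IL1R1. RNA splicing and RNA-binding families had 6 of 198 (3.03%, 1.12 to 6.48%), beside 3.15%. Ubiquitin ligase and protease families had 12 of 398 (3.02%, 1.57 to 5.21%), beside 3.40%, led by RNF41 with 3.39. Genes of the mitochondrial ribosome and respiratory chain had 2 of 186 (1.08%, 0.13 to 3.83%), beside a length-weighted 2.06%. They were MRPS11 with 2.66 and ATP5PO with 2.63, each with 2 fragments.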
